A study of Homo sapiens with 5 samples.

Results

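The genes described here are the human cadherins and protocadherins, cell-surface proteins that hold neighbouring cells together and sort them by type. They were chosen by symbol alone: the numbered cadherins (CDH with a number), the numbered protocadherins (PCDH with a number) and the clustered protocadherins PCDHA, PCDHB and PCDHG. A gene had to be listed in both human annotations of the series, which left 87 genes of the 32732 that both list. They comprised 5 type I classical cadherins, 13 type II classical cadherins, 5 other cadherins, 3 delta-1 and 5 delta-2 protocadherins, 3 further non-clustered protocadherins, 15 alpha, 16 beta and 22 gamma protocadherins.

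The study asked how cells of human brain organoids change once they are grafted into a mouse brain. Organoids were grown from H9, a human embryonic stem cell line labelled WT, which carried channelrhodopsin-2 and the fluorescent protein EYFP (AAVS-ChR2-EYFP). Single-cell RNA sequencing (10x Genomics 3′ chemistry) was done on organoids at day 42 of culture, the day of transplantation (D0), and on human cells recovered 2 or 4 months post transplantation (2MPT, 4MPT) from the prefrontal cortex (PFC) or the hippocampus (HIP) of immunodeficient mice, which the study's text calls SCID in some places and SCID-Beige in others. Each condition was 1 library (D0, HIP_2MPT, PFC_2MPT, HIP_4MPT, PFC_4MPT). All conditions share the H9 genotype and the transgene, the grafts were pooled from several host mice, and the hosts were young adults by the study's methods. Grafts were dissociated with Trypsin-EDTA and D0 organoids with TrypLE, both of which digest proteins at the cell surface, so enzyme, culture and D0 cannot be told apart.

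Classical cadherins bind the same cadherin on the next cell through their outer repeats, in the presence of calcium, and reach the actin cytoskeleton through beta-catenin and alpha-catenin. Type I members such as CDH2 (N-cadherin) hold neuroepithelium together, whereas type II members are used in combinations that mark neuronal nuclei, layers and circuits. Delta protocadherins adhere weakly and are linked to axon growth and synapse choice. Clustered protocadherins are encoded by 3 neighbouring gene families on one chromosome, of which each neuron reads a few genes, giving it an identity by which its own branches recognise and avoid each other. Alpha and gamma genes add their own first exon to last exons that their family shares, whereas each beta gene is a single exon.

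After filtering, 34390 human cells were kept, from 4885 in D0 to 8363 in PFC_4MPT. The median number of UMIs (unique molecular identifiers, 1 per captured transcript) per cell was 9847 in D0 and 1253 to 2759 in the grafts, so graft values carry more counting error per cell than D0 values. Pairs of libraries shared 6 to 20 cell barcodes, at most 0.289% of the smaller library. Clusters named from marker genes gave neuron-like, progenitor-like, astrocyte-like, oligodendrocyte-lineage-like and choroid-plexus-like classes. The neuron-like class includes clusters 3, 11 and 18 (2443, 1231 and 386 cells), whose best marker list was that of intermediate progenitor neurons. The progenitor-like class holds radial glia and cycling progenitors. Neuron-like cells made up 44.2% of D0 and 69.9% to 89.2% of the grafts, and progenitor-like cells 35.3% of D0 and 4.5% to 9.8% of the grafts. Choroid-plexus-like cells made up 18.9% of D0 and at most 0.48% of the grafts. Their share of D0 depended on the clustering. It was 7.5% at a resolution of 1.6, where 11.4% of D0 was unnamed. It was 15.1% with the family among the variable genes and 21.7% without integration. Oligodendrocyte-lineage-like cells formed 13.7% and 8.8% of HIP_4MPT and PFC_4MPT and at most 1.1% elsewhere. Most of this class was cluster 7 (OLIG1, EGFR, 1612 cells). A like cluster led by OLIG1 could not be named without integration (2088 cells) or with the family among the variable genes (1745 cells), which left 143 and 31, or 166, cells with the name. In both, the best marker list of that cluster was that of astrocytes, and SPARCL1, CST3 and MT3 were among its leading genes. These clusterings therefore did not hold cells led by OLIG1 apart from astrocyte-like cells. In sums over all human cells, fewer cells of a class and less RNA per cell cannot be told apart, so class values are given beside part of them.

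Levels are UMIs per 1000000 human UMIs (CPM), summed over the cells of a library. They are not per transcript length and depend on each gene's 3′ end, so they were compared between libraries and classes, not ranked between genes. Of the 87 genes, 18 averaged at least 10 CPM over the 5 libraries, 29 averaged 1 to 10 CPM, and 40 were under 1 CPM. CDH16, a kidney cadherin, had no UMI in any library. Together the family held 105477 UMIs, of which the 5 most abundant genes held 55.2%. Summed over all 87 genes, the level was 644 CPM in D0 and rose above it in each graft: HIP_2MPT held 902, PFC_2MPT 991, HIP_4MPT 1295 and PFC_4MPT 1038 CPM. Where several graft values follow each other without names, they are in this order of libraries. In neuron-like cells the sum was 757 CPM in D0 and 923, 1110, 1420 and 1099 CPM in the grafts. It did not rise in every graft in the other classes compared. Progenitor-like cells held 546.5 CPM in D0 and 723, 568, 641 and 479 CPM in the grafts. Astrocyte-like cells held 771 CPM in D0 (76 cells) and 766, 757, 1479 and 1050 CPM in the grafts. Without integration only 4 cells of D0 had this name, so the D0 value of the class depends on the clustering.

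**Figure D1:**
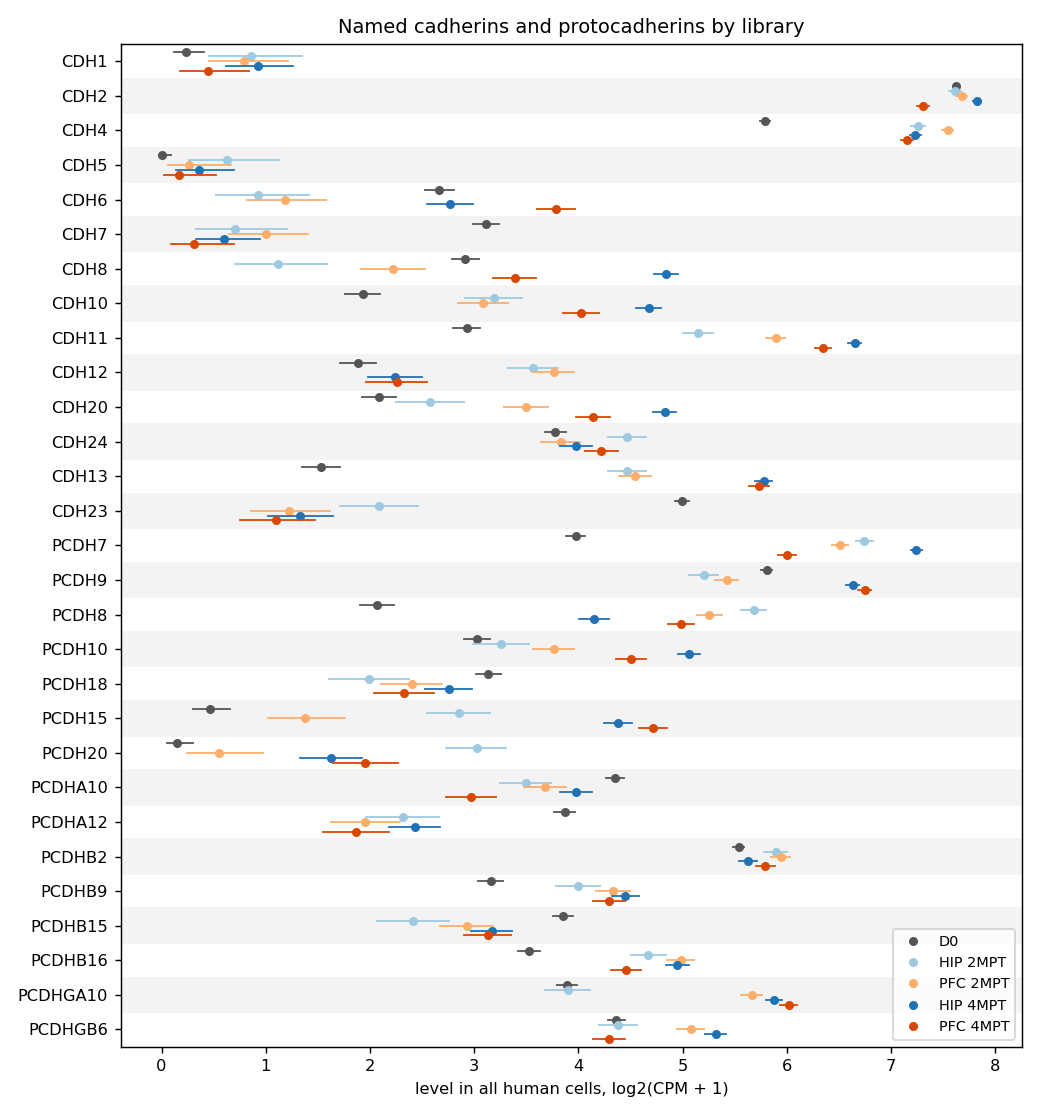
Levels of the named cadherins and protocadherins in the 5 libraries, summed over all human cells, as log2(CPM + 1) on the horizontal axis, with genes in rows by role. Each point is 1 library and each line an exact 95% Poisson interval, which covers counting error only. CDH2 lies between 157 and 226 CPM in every library, while PCDH8, CDH13, CDH11, CDH4 and PCDH7 lie higher in each graft than in D0.

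Among the type I cadherins, CDH2 held a similar level in D0 and the grafts and CDH4 was higher in the grafts. CDH2, the main neural cadherin, stood at 197 CPM in D0 and at 195, 204, 226 and 157 CPM in the 4 grafts, HIP_4MPT being the highest and PFC_4MPT the lowest. The D0 value lay inside the range of the grafts, and CDH2 passed no test between stages or sites. CDH4 (R-cadherin), which also joins neural cells, stood at 54.5 CPM in D0 against 152, 186, 150 and 142 CPM in the grafts, so that all 4 grafts lay above D0 without overlap. CDH1 (E-cadherin), the epithelial type, stayed between 0.18 and 0.90 CPM. CDH5, the endothelial type II cadherin, had 0 UMIs in D0, which allows up to 0.0537 CPM, and 2 to 6 UMIs in each graft library. Epithelial and endothelial cadherins were therefore near the limit of detection in these human cells.

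The first comparison set grafts at 2MPT against D0. Among genes whose level rose were CDH13, CDH11, CDH4, PCDH8 and PCDH7, and among those that fell were CDH23, CDH7, CDH6 and the protocadherin PCDHA12. On sums over all human cells, the quasi-likelihood test of edgeR, adjusted after Benjamini and Hochberg, found 10 of the 61 genes tested higher and 11 lower. Over all genes tested, 27.2% were called higher and 21.1% lower. The family's share called higher lay under the background and its share called lower was near it, and neither difference was tested. The median log2 difference was -0.35 over the 61 tested genes of the family and 0.07 over all genes tested. D0 had 1 library and was assumed to vary like the grafts, and nothing in the labels says that the libraries came from separate cultures or operations, so p-values measure only the spread between these libraries.

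CDH13 (T-cadherin), a cadherin anchored to the membrane by a lipid and without an inner domain, stood at 1.88 CPM in D0, at 21.2 and 22.3 CPM in HIP and PFC at 2MPT, and at 53.9 and 52.1 CPM at 4MPT. The 3 stages did not overlap and both sites lay close together at each stage. Its log2 difference, 2MPT over D0, was 3.16 ± 0.33 (SE, edgeR, adjusted p = 4.5e-05). CDH11 (type II, OB-cadherin) stood at 6.61 CPM in D0 and at 34.4, 58.4, 99.5 and 80.7 CPM in the grafts. Again every graft lay above D0, with a log2 difference at 2MPT of 2.45 ± 0.39 (SE, edgeR, adjusted p = 0.000551).

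The delta protocadherins moved in both directions. PCDH8 (arcadlin), a delta-2 protocadherin that neuronal activity induces at synapses, stood at 3.19 CPM in D0 and at 50.3, 37.2, 16.8 and 30.7 CPM in the grafts, highest at 2MPT. Its log2 difference at 2MPT was 3.40 ± 0.46 (SE, edgeR, adjusted p = 0.000221). PCDH7, a delta-1 protocadherin, stood at 14.7 CPM in D0 and at 106, 90.2, 150 and 63.0 CPM in the grafts, a log2 difference at 2MPT of 2.36 ± 0.46 (SE, edgeR, adjusted p = 0.00184). PCDH9, the other abundant delta-1 protocadherin, fell by 0.87 ± 0.27 on the log2 scale (SE, edgeR, adjusted p = 0.0209), from 54.9 CPM to 35.8 and 41.99 CPM, but without HIP_2MPT the difference was -0.73 and was not called. PCDH18, PCDH19 and PCDH1 fell as well, although PCDH18 was lost without HIP_2MPT (-1.21), PCDH19 without HIP_2MPT, PFC_2MPT or PFC_4MPT (-1.22, -1.20 and -1.16), and PCDH1 without PFC_2MPT, HIP_4MPT or PFC_4MPT (-1.27, -1.59 and -1.54).

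CDH23, whose product forms tip links in inner-ear hair cells, had the most negative log2 difference of the family. It stood at 30.8 CPM in D0 and at 3.25, 1.34, 1.51 and 1.14 CPM in the grafts, a log2 difference at 2MPT of -4.15 ± 0.45 (SE, edgeR, adjusted p = 6e-05). In D0 the gene was highest in progenitor-like cells, at 47.4 CPM, and progenitor-like cells of the grafts held 2.27 to 3.93 CPM, so the D0 level lay above every graft within that class too. CDH7, a type II cadherin, fell from 7.66 CPM to 0.63 and 1.00 CPM at 2MPT, and held 0.52 and 0.24 CPM at 4MPT. CDH6 and CDH8, both type II, fell at 2MPT by 2.65 and 1.76 on the log2 scale, the CDH8 call being lost without PFC_4MPT (-1.71).

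PCDH20 had the largest positive difference at 2MPT, 4.67 ± 1.36 (SE, edgeR, adjusted p = 0.0161), but this came mostly from one library. Its levels were 0.11 CPM in D0, 7.14 CPM in HIP_2MPT, and 0.47, 2.08 and 2.88 CPM in PFC_2MPT and the 4MPT libraries. Without HIP_2MPT the difference was 1.74 and was not called, nor was it without PFC_4MPT (4.74). In the current annotation 82.7% of the last 1000 exonic bases of PCDH20 overlap a gene outside the family, so its UMIs cannot be assigned with certainty.

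Against D0, the grafts at 4MPT gave 14 genes higher and 6 lower of 61 tested, beside 28.7% of all genes higher and 21.4% lower. Both graft stages were set against the same D0 library, so the lists are not independent. PCDH15, at 0.38 CPM in D0 and 19.8 and 25.3 CPM in HIP_4MPT and PFC_4MPT, had a log2 difference of 5.58 ± 0.78 (SE, edgeR, adjusted p = 0.00025). CDH13 differed by 4.498 and CDH11 by 3.45 at 4MPT, and PCDHGA10, which was not called at 2MPT, by 1.82. The PCDHGA10 call was lost without PFC_4MPT (1.76). CDH23 and CDH7 were lower at 4MPT than in D0 by 4.85 and 4.60 on the log2 scale.

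Counts against D0 moved with gene length across the whole table. In the comparison of 2MPT with D0, the median log2 difference over all genes was -0.17 for genes spanning under 10 kb and 2.20 for genes over 300 kb, of which 68.2% were called higher and 5.42% lower. Of the family, 9 tested genes span over 300 kb, and 5 of them rose and 3 fell (median 1.26). CDH13 spans 1174 kb (chr16:82626965-83800640), CDH4 688 kb, PCDH7 426 kb, PCDH15 1825 kb and CDH12 1103 kb, and these are the 5 that rose. PCDH9 (928 kb), CDH23 (419 kb) and CDH8 (390 kb) fell against that shift, while PCDH8, which spans 5.8 kb, and CDH11, which spans 182 kb, also rose. The length class of CDH11, 100 to 300 kb, was shifted as well, with a median of 0.71, 42.9% of genes called higher and 12.6% lower. The matrix headers name Cell Ranger 3.1.0 for D0 and 5.0.0 for the grafts, whether reads in introns were counted is not given in the sources used here, and the part of either in these differences cannot be told apart from transplantation.

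**Figure D2:**
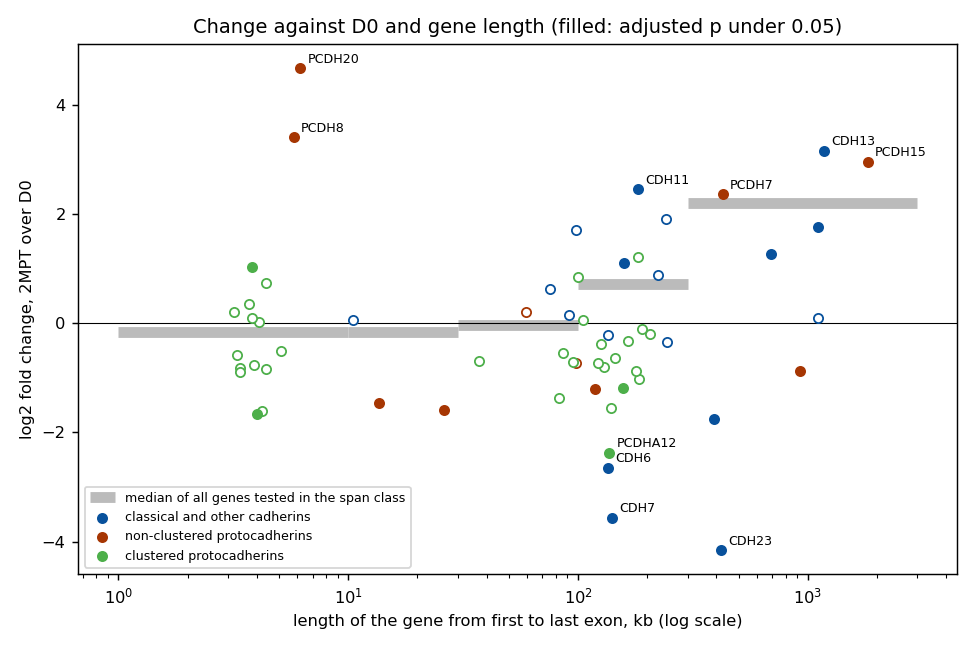
Log2 difference of 2MPT over D0 in all human cells (vertical axis) against the length of each tested gene of the family from first to last exon in kb (horizontal, log scale), coloured by family. Filled points have an adjusted p under 0.05 by edgeR, and grey bars mark the median of all genes tested in each of 5 length classes. The grey bars climb from -0.17 under 10 kb to 2.20 over 300 kb, and CDH23 lies far below the bar of its class.

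Within neuron-like cells, 8 of 57 tested genes were higher at 2MPT than in D0 and 10 lower, beside 26.3% and 17.3% of all genes. Different clusters held most of the class at the 2 stages. Cluster 12, led by SST, NTS and CALB2, held 1130 of 2161 neuron-like cells of D0 and none of 2MPT, whereas clusters 0, 1 and 2, which held most neuron-like cells of both 2MPT libraries, had 106, 27 and 19 cells of D0. CDH13 (3.29), CDH11 (3.21), PCDH8 (2.62), CDH12 (2.58), PCDH7 (2.38) and CDH4 (1.99) rose, as did PCDH20 (4.63) and PCDH15 (2.60), both lost without HIP_2MPT (1.72 and 1.46). CDH7 fell by 5.60 and CDH23 by 3.27 on the log2 scale. PCDH9 fell by 1.73 ± 0.38 (SE, edgeR, adjusted p = 0.00403), from 113 CPM in D0 to 34.6 and 40.7 CPM, whereas PCDHA12 fell by 2.67 and PCDHB15 by 1.75. CDH18, PCDH19 and PCDHB14 were also lower, each lost without PFC_2MPT (-1.25, -1.31 and -1.12) and PCDHB14 also without HIP_2MPT (-0.99). With the cells of cluster 12 left out (chosen after seeing the data), 8 genes were higher and 8 lower, CDH18 (-0.43), PCDH19 (-1.26) and PCDHB14 (-0.79) were not called, and PCDH18 (-1.34) was.

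Within progenitor-like cells, 7 of 29 tested genes were higher at 2MPT and 6 lower, beside 20.2% and 14.1% of all genes. Cluster 9, led by PRKCB, ID3 and VIM, held 969 of 1724 progenitor-like cells of D0, and at 2MPT cluster 14, cycling cells led by HIST1H1B and RRM2, was the largest of the class. PCDH8 stood at 0.51 CPM in D0 and at 22.9 and 12.2 CPM at 2MPT, and PCDH7 at 5.65 CPM against 93.0 and 58.1 CPM, log2 differences of 4.59 and 3.32. PCDHB16 rose by 1.78, CDH20 by 1.90 (1.26 and not called without PFC_2MPT) and CDH13 by 2.09 (1.55 and not called without HIP_2MPT). PCDH9 went the other way than in neuron-like cells, from 20.1 CPM in D0 to 50.7 and 55.0 CPM, a log2 difference of 1.02 that was lost without either 2MPT library (1.05 without HIP_2MPT and 0.94 without PFC_2MPT). The difference between the classes was not tested. CDH23 fell by 3.99 ± 0.45 (SE, edgeR, adjusted p = 5.2e-06).

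The comparison of 4MPT with 2MPT lay within the grafts and so within one dissociation enzyme and one Cell Ranger release. CDH6, CDH8, PCDH15, PCDH9, CDH10, PCDH10 and CDH13 rose and CDH12 fell, 7 of 61 tested genes higher and 1 lower, beside 1.85% and 0.55% of all genes. Long genes were called more often here too. Of genes over 300 kb, 6.29% were called higher and 2.03% lower. Of the 9 tested members of that length, 4 rose and 1 fell. The median log2 difference was 0.21 over the 61 tested genes of the family and -0.01 over all genes tested. No member passed without PFC_4MPT, 2 passed without HIP_4MPT, 8 without HIP_2MPT and 12 without PFC_2MPT. In these refits the differences of the 7 genes that rose lay between 1.07 and 4.04, and no direction turned. Shares of all genes called in the refits are not given here, so the counts of members have no background beside them.

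**Figure D3:**
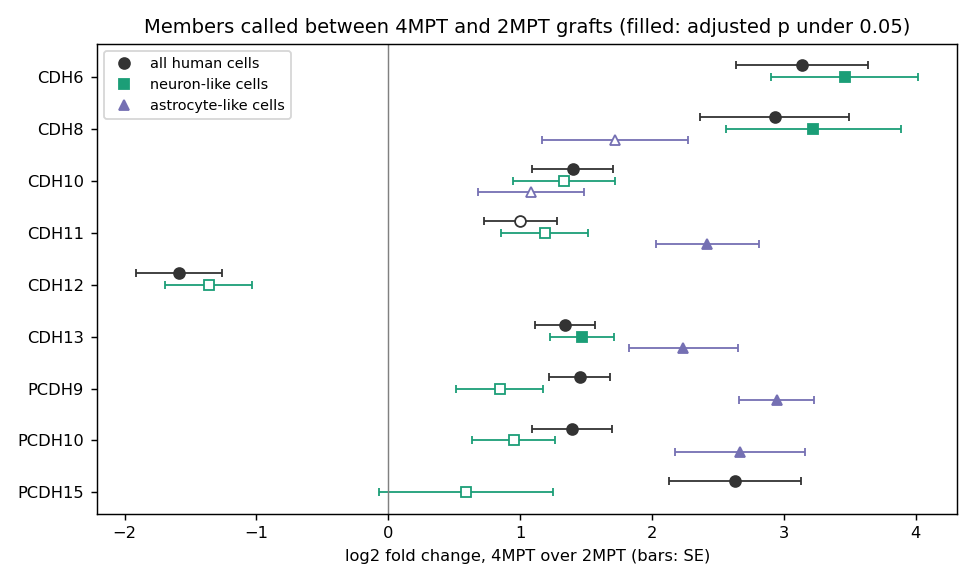
Log2 difference of 4MPT over 2MPT (horizontal axis, bars of 1 SE) in all human, neuron-like and astrocyte-like cells, for the genes of the family called in any of these 3 sets. Filled symbols have an adjusted p under 0.05 by edgeR. CDH6, CDH8 and PCDH15 lie furthest to the right in all human cells, and CDH12 lies left of 0.

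CDH6 (K-cadherin, type II) stood at 0.90 and 1.27 CPM in HIP and PFC at 2MPT and at 5.81 and 12.8 CPM at 4MPT, with 5.35 CPM in D0. Both 4MPT libraries lay above both 2MPT libraries, and the log2 difference was 3.14 ± 0.50 (SE, edgeR, adjusted p = 0.00906). The gene was concentrated in cluster 10, neuron-like cells led by NRXN3, DLX6-AS1, GAD2, DLX5 and DLX1, genes of inhibitory neurons, where it reached 74.3 CPM against at most 10.3 CPM in any other cluster with at least 100 graft cells. That cluster held 13 and 18 cells of the 2MPT libraries and 243 and 1077 cells of HIP_4MPT and PFC_4MPT. It supplied 27.6% of the CDH6 UMIs of HIP_4MPT and 73.7% of those of PFC_4MPT, and the other cells held 4.33 and 3.81 CPM. With the cells of cluster 10 left out, an alternative chosen after seeing the data, the CDH6 difference was 2.30 and was still called, while without PFC_4MPT it was 2.41 and was not.

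CDH8 (type II) stood at 1.18, 3.68, 27.7 and 9.48 CPM in the grafts, and CDH10 (type II) at 8.13, 7.49, 24.5 and 15.3 CPM. In both genes the stages did not overlap and HIP_4MPT was the highest library. The log2 differences were 2.93 ± 0.57 for CDH8 (SE, edgeR, adjusted p = 0.0241) and 1.40 ± 0.31 for CDH10 (SE, edgeR, adjusted p = 0.0414). CDH12, a further type II cadherin on the same arm of chromosome 5 as CDH10, went the other way, from 10.8 and 12.6 CPM to 3.73 and 3.78 CPM (-1.59 ± 0.33, SE, edgeR, adjusted p = 0.0321). Without HIP_4MPT the difference of CDH8 was 2.03, of CDH10 1.07 and of CDH12 -1.53, and without PFC_4MPT 3.49, 1.67 and -1.64, none of them called. With the cells of cluster 21, described below, left out, CDH10 differed by 1.25 and was not called either.

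PCDH15, which forms the lower part of the tip link in hair cells and is a marker of oligodendrocyte progenitors in brain, stood at 6.24, 1.61, 19.8 and 25.3 CPM in the grafts, and both 4MPT libraries lay above both 2MPT libraries. Its log2 difference was 2.63 ± 0.50 (SE, edgeR, adjusted p = 0.0221). In the grafts the gene stood at 1097 CPM in cluster 21, oligodendrocyte-lineage-like cells led by APOD, LHFPL3, BCAS1, PDGFRA and MBP, and at no more than 19.5 CPM in any other cluster with at least 100 graft cells. Cluster 21 held 4 and 0 cells of the 2MPT libraries and 63 and 106 cells of the 4MPT libraries, which gave 71.9% and 54.5% of the PCDH15 UMIs at 4MPT. With the cells of cluster 21 left out (chosen after seeing the data), the difference was 1.25 ± 0.58 (SE) and was not called. It was also lost without HIP_4MPT (2.83) or PFC_4MPT (2.39).

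PCDH9, a delta-1 protocadherin, stood at 35.8, 41.99, 98.4 and 106 CPM, and PCDH10 (OL-protocadherin, delta-2) at 8.59, 12.6, 32.4 and 21.7 CPM, in the grafts. Their log2 differences were 1.45 ± 0.23 (SE, edgeR, adjusted p = 0.00866) and 1.39 ± 0.30 (SE, edgeR, adjusted p = 0.0396). Without HIP_2MPT, HIP_4MPT or PFC_4MPT the PCDH10 difference was 1.13, 1.13 and 1.62 and was not called, and PCDH9 was lost without PFC_4MPT (1.35). CDH13 rose by 1.34 ± 0.23 (SE, edgeR, adjusted p = 0.0119), and was lost without either 4MPT library (1.36 without HIP_4MPT and 1.33 without PFC_4MPT). CDH20, a type II cadherin, stood at 4.97, 10.3, 27.4 and 16.6 CPM and did not pass (adjusted p = 0.0658 by edgeR).

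Within neuron-like cells, CDH6 (3.46 ± 0.56, SE, edgeR, adjusted p = 0.0132), CDH8 (3.22 ± 0.67, adjusted p = 0.0448) and CDH13 (1.47 ± 0.24, adjusted p = 0.0149) rose between 2MPT and 4MPT, 3 of 57 tested and none lower, beside 0.898% and 0.427% of all genes. Of genes over 300 kb, 3.52% were called higher and 1.31% lower, and 2 of the 9 tested members of that length rose. CDH13 stood at 22.3, 27.3, 73.2 and 61.1 CPM in neuron-like cells of the grafts. CDH11 stood at 37.3, 75.3, 148 and 104 CPM there, without overlap of the stages, and did not pass. The CDH8 call was lost without HIP_4MPT (2.00), and those of CDH6 and CDH13 without PFC_4MPT (2.52 and 1.57). With the cells of cluster 10 left out, CDH6 differed by 2.32 and was not called, and CDH8 (3.31) and CDH13 (1.61) were.

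Within astrocyte-like cells, PCDH9, PCDH10, CDH11 and CDH13 rose, 4 of 24 tested genes and none lower, beside 1.86% and 0.754% of all genes. Of genes over 300 kb, 6.11% were called higher and 0.426% lower, and 2 of the 6 tested members of that length rose. The median log2 difference was 1.01 over the 24 tested genes of the family and -0.01 over all genes tested. The other 63 genes of the family did not pass the filter on counts. A gene can pass it through 4MPT, where this class held more UMIs (2890588 and 1563469) than at 2MPT (490739 and 1131353). Neither the median nor the count of genes called is therefore read as a rise of the family. PCDH9 stood at 32.6, 32.7, 278 and 209 CPM in HIP and PFC at 2MPT and then at 4MPT, a log2 difference of 2.94 ± 0.28 (SE, edgeR, adjusted p = 0.000697). PCDH10 stood at 4.08, 11.49, 72.7 and 36.5 CPM (2.67 ± 0.49, SE, edgeR, adjusted p = 0.0191) and CDH11 at 8.15, 7.07, 37.0 and 40.9 CPM (2.42 ± 0.39, SE, edgeR, adjusted p = 0.0105). The PCDH10 levels at 2MPT were 2 UMIs in HIP and 13 in PFC, and 0 UMIs in HIP_2MPT would allow up to 6.11 CPM. CDH13 stood at 12.2, 6.19, 39.4 and 35.8 CPM (2.24 ± 0.41, SE, edgeR, adjusted p = 0.0187). In each of the 4 genes both 4MPT libraries lay above both 2MPT libraries. Without HIP_4MPT the PCDH10 and CDH13 calls were lost (2.07 and 2.15), and CDH13 also without PFC_2MPT (1.70).

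The astrocyte-like cells fell into 2 clusters that the stages filled unequally. Cluster 6, led by MT1E, TNC and APOE, held 354, 409, 527 and 410 cells of the graft libraries, and cluster 19, led by SPARCL1, CST3 and MT3, held 11, 1, 175 and 137. In cluster 6 alone PCDH9 stood at 29.6, 31.9, 131 and 150 CPM, and in cluster 19 at 780 and 381 CPM in the 4MPT libraries. Counts in cluster 6 were small in HIP and PFC at 2MPT, 1 and 13 UMIs of PCDH10, 2 and 8 of CDH11, and 6 and 7 of CDH13. With the cells of cluster 19 left out (chosen after seeing the data), the log2 differences were 2.21 for PCDH9, 2.44 for PCDH10, 2.54 for CDH11 and 2.12 for CDH13, and all 4 were still called. The rise in these 4 genes was thus also measured within the cluster that held most astrocyte-like cells of every graft.

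The comparison of grafting sites set PFC against HIP within stages. Neither in all human cells (51 tested) nor in neuron-like cells (47 tested) was any cadherin or protocadherin called by the same edgeR test, beside 0.0876% and 0.0% of all genes. At an unadjusted p under 0.05 (edgeR), 5 of the 51 genes passed in all human cells and 4 of the 47 in neuron-like cells. The share of all genes at that unadjusted threshold was not counted, and the shares above are for adjusted p, so no excess is read from these counts. DESeq2 called none in either. With 4 libraries and the stage in the model, the fit had 1 residual degree of freedom. PCDH7, for example, stood at 106 CPM in HIP_2MPT and 90.2 in PFC_2MPT, and at 150 in HIP_4MPT and 63.0 in PFC_4MPT, so HIP lay above PFC at both stages by unequal amounts.

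Across cell classes of the grafts, CDH4 and CDH11 were higher in neuron-like than in astrocyte-like cells, and CDH20 and CDH18 were higher in astrocyte-like than in neuron-like cells. A gene was counted for a class if it was at least 2-fold higher there in each of the 4 grafts, on CPM plus 1. The classes are clusters of the same cells, so this is a description without a test, although the family was left out of the genes used for clustering. CDH4 stood at 165 to 230 CPM in neuron-like cells of the grafts, 68.8 to 78.7 in astrocyte-like cells and 25.0 to 53.1 in progenitor-like cells. CDH11 stood at 37.3 to 148, 7.07 to 40.9 and 6.55 to 18.4 CPM in these 3 classes. PCDHA9 was the third gene higher in neuron-like than in astrocyte-like cells, and these 3 were 3 of 68 genes with enough UMIs, beside 2.68% of all genes. PCDHA9 stood at 4.14, 7.28, 9.87 and 4.69 CPM in neuron-like and at 0, 0, 2.42 and 0.64 CPM in astrocyte-like cells. In astrocyte-like cells of HIP_2MPT, 0 UMIs allow up to 6.11 CPM, so the difference is uncertain there. Levels of single alpha genes are also uncertain, as described below.

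CDH20 stood at 38.7, 48.6, 78.2 and 46.7 CPM in astrocyte-like cells of the grafts and at 2.04 to 5.29 CPM in neuron-like cells. Its level in oligodendrocyte-lineage-like cells, which not every clustering held apart from astrocyte-like cells, was as high, 82.8 CPM in HIP_4MPT and 56.5 CPM in PFC_4MPT. CDH20 was also the only one of 67 genes that was at least 2-fold higher in progenitor-like than in neuron-like cells, at 14.5 to 27.9 CPM, beside 4.32% of all genes. CDH18 stood at 20.4, 21.2, 74.0 and 13.4 CPM in astrocyte-like cells and at 0.60 to 2.48 CPM in neuron-like cells. CDH20 and CDH18 were 2 of 68 genes higher in astrocyte-like than in neuron-like cells, beside 6.2% of all genes. PCDH8, at 23.8 to 54.2 CPM in neuron-like and 4.25 to 22.9 CPM in progenitor-like cells, was with CDH4 and CDH11 one of 3 of 67 genes higher in neuron-like than in progenitor-like cells, beside 3.46% of all genes. CDH2 lay at 164 to 230 CPM in neuron-like, 194 to 304 CPM in astrocyte-like and 128 to 213 CPM in progenitor-like cells, which overlapped.

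**Figure D4:**
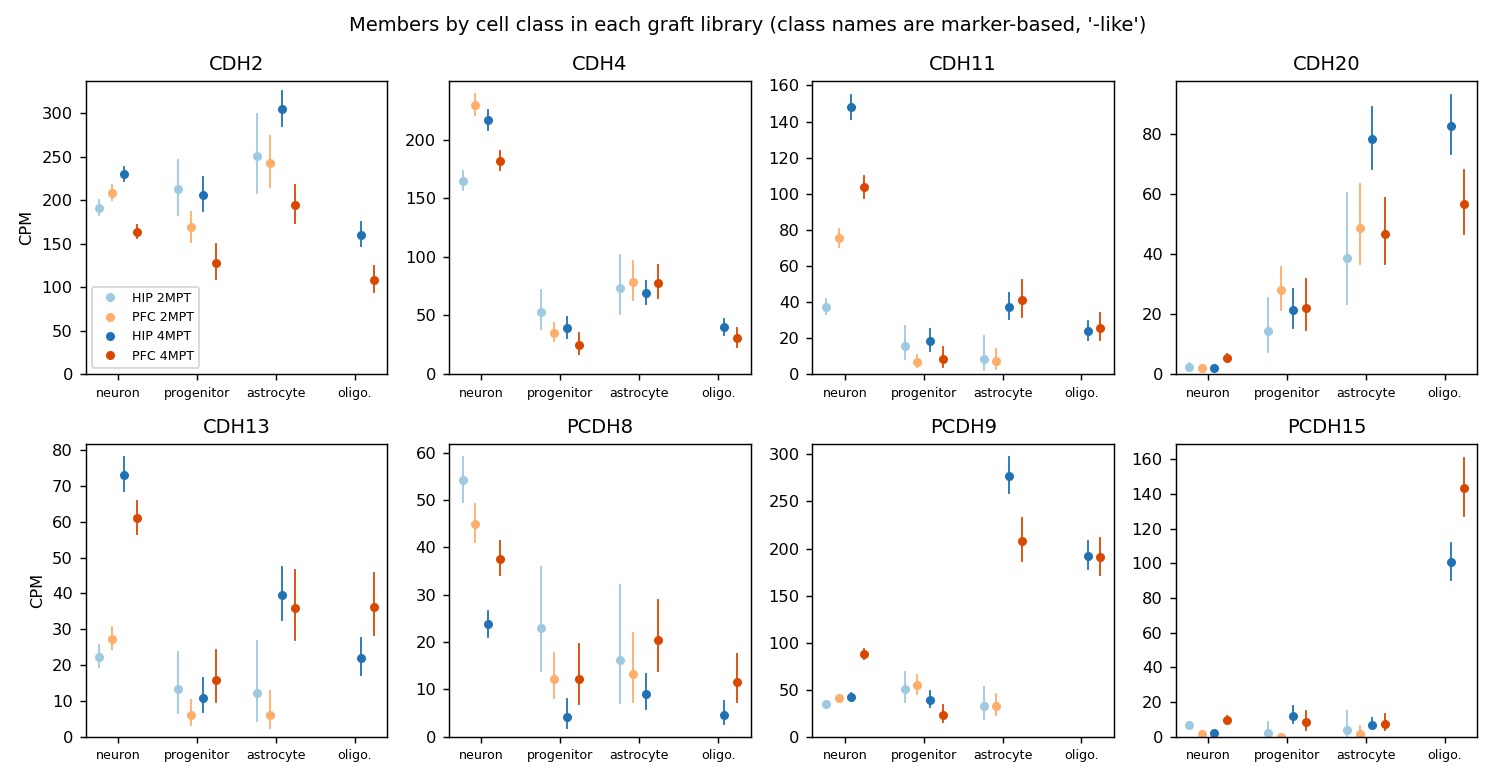
CPM (linear axis from 0) of CDH2, CDH4, CDH11, CDH20, CDH13, PCDH8, PCDH9 and PCDH15 in 4 cell classes of each graft library, 1 point per library with its exact 95% Poisson interval. Oligodendrocyte-lineage-like cells of the 2MPT libraries (30 and 65 cells) are left out. CDH4 and CDH11 are at least 2-fold higher in neuron-like than in astrocyte-like cells of each graft, CDH20 is at least 2-fold lower there, and PCDH15 is highest in oligodendrocyte-lineage-like cells at 4MPT.

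Oligodendrocyte-lineage-like cells fell into 2 clusters with unlike protocadherin levels. In cluster 21, PCDH9 stood at 1305 CPM, PCDH15 at 1097 CPM, PCDH7 at 348 CPM, CDH20 at 179 CPM and CDH10 at 167 CPM in the grafts, each the highest level of that gene in any cluster with at least 100 graft cells. CDH12 and PCDH18 had no UMI there. PCDH15 and PDGFRA were among the genes by which this cluster stood apart, so these levels describe it and were not tested.

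The 53 clustered protocadherins lie side by side on the long arm of chromosome 5 in the order alpha, beta, gamma (GRCh38). The 15 alpha genes span chr5:140786136-141012347 and all end at the same base, sharing all of their last 1000 exonic bases with the 14 others. Of the 22 gamma genes, 21 share their last 1000 exonic bases entirely with other gamma genes and the remaining one shares 99.8%. The 16 beta genes (chr5:141051374-141249365) share none with any other gene of the family. A 3′ library reads mostly the ends of transcripts, so how far reads in the shared ends of alpha and of gamma genes were counted is uncertain. Levels of single alpha and gamma genes rest on that counting, and so do the sums over each of these 2 families. Per gene, 2 alpha genes (PCDHA10 and PCDHA12) held 58.8% of 4739 alpha UMIs, and PCDHGA10 and PCDHGB6 held 88.9% of 7754 gamma UMIs.

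**Figure D5:**
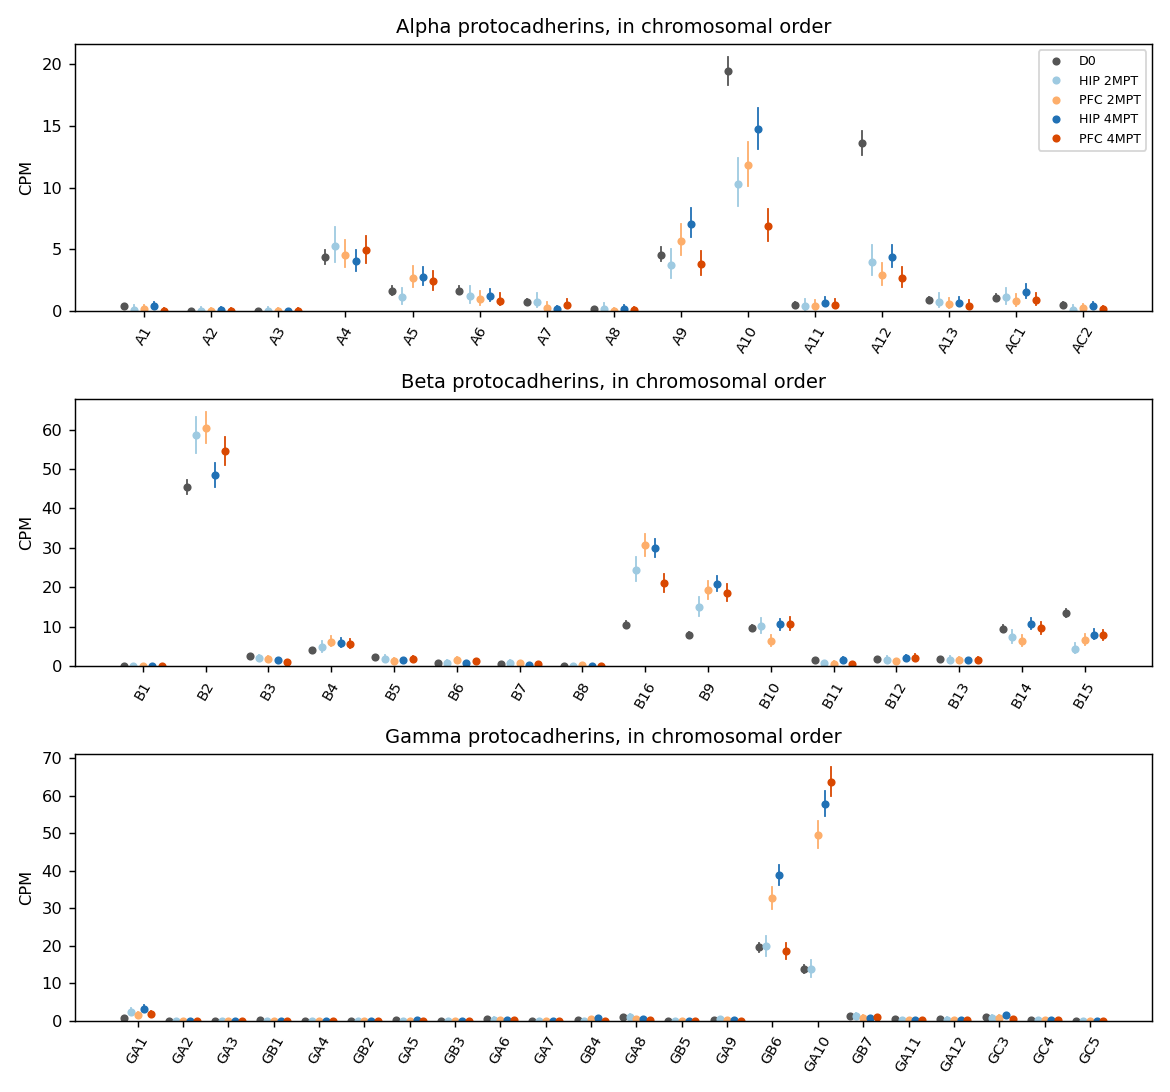
CPM (linear axis from 0) of the 53 clustered protocadherins in the 5 libraries, in panels for the alpha, beta and gamma families and in their order along chromosome 5. Points are libraries and lines exact 95% Poisson intervals. PCDHB2 is the highest beta gene in each library, and PCDHGA10 and PCDHGB6 stand above the other gamma genes.

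The summed alpha level was 49.2 CPM in D0 and 23.9 to 38.3 CPM in the grafts, the beta level 111 CPM and 134 to 144 CPM, and the gamma level 41.0 CPM and 41.3 to 106 CPM. Over all human cells, the alpha sum was thus lower in every graft than in D0 and the beta sum higher, while the gamma sum of HIP_2MPT lay close to that of D0. In neuron-like cells the alpha sum was 69.8 CPM in D0 and 28.2 to 43.25 CPM in the grafts. The beta sum there was 152 CPM in D0 and 135, 161, 158 and 142 CPM in the grafts, on both sides of D0. The gamma sum there was 63.0 CPM in D0 and 43.5, 101, 117 and 97.1 CPM in the grafts. Sums are carried by the abundant genes, and the median log2 difference at 2MPT against D0 was negative in each family, -0.72 over 10 alpha, -0.55 over 14 beta and -0.69 over 9 gamma genes tested, beside 0.07 over all genes. At 2MPT against D0, PCDHA10 and PCDHA12 fell and none of 10 tested alpha genes rose. Over all genes tested, 27.2% were called higher and 21.1% lower. The alpha count, and the beta count below, were not tested against these shares. PCDHA12 went from 13.6 CPM in D0 to 3.98 and 2.88 CPM, a fall by 2.37 ± 0.42 on the log2 scale (SE, edgeR, adjusted p = 0.00105). Of 14 beta genes tested, PCDHB16 rose and PCDHB15 fell. PCDHB16 stood at 10.5 CPM in D0 and at 24.5, 30.6, 29.9 and 21.01 CPM in the grafts (1.02 ± 0.33, SE, edgeR, adjusted p = 0.0248), with a difference of 0.83 and no call without PFC_2MPT.

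PCDHB15 stood at 13.5 CPM in D0 and at 4.34, 6.62, 7.98 and 7.74 CPM in the grafts, below D0 in each graft (-1.66 ± 0.38, SE, edgeR, adjusted p = 0.00456). PCDHB2 held the highest UMI count of the beta genes, at 45.5 CPM in D0 and 58.6, 60.5, 48.4 and 54.5 CPM in the grafts, and was not called in any comparison. PCDHB9 stood at 7.93 CPM in D0, at 12.8 to 17.5 CPM in HIP_2MPT (95% exact Poisson interval of 166 UMIs) and at 19.2, 20.9 and 18.6 CPM in the other grafts, above D0 in each, and was called at 4MPT against D0 (1.00), but not without HIP_4MPT (0.97) or PFC_4MPT (1.10). The gamma gene PCDHGA10 stood at 13.9 CPM in D0 and at 13.9, 49.6, 57.8 and 63.8 CPM in the grafts, so that HIP_2MPT lay with D0 and the other 3 grafts lay above both. Its difference of 4MPT over 2MPT was not called (0.98), and without PFC_2MPT it was 2.21 and called. PCDHB1 had 2 UMIs in D0 and 1 in the grafts, and PCDHB8 had 3 in D0 and 4 in the grafts.

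Each alpha, beta and gamma gene has its own promoter, and most promoters of a family share a short conserved element. Promoter sequences (RefSeq, GRCh38.p14, 250 bases before to 50 after the start) were found for 68 of the 87 genes. For each family, the 8 letters held by most of its promoters were picked from these same sequences. Ties went to the letters rarest among all promoters, so a high share in the family is set by the choice and is not a test. The 8 letters GTGGCGCT, searched on both strands, were in 13 of 14 beta promoters and in 1.15% of all 35116 promoters. Below are 30 bases of 6 beta promoters, the 5 genes named above with PCDHB1, 5′ to 3′ on the plus strand of chromosome 5, shown so that abundant and near-silent genes can be set side by side, with the 8 letters or the aligned letters in capitals.

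PCDHB1 (chr5:141051338-141051367): gctagcctttgGTGGTGCTgcagttagagg

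PCDHB2 (chr5:141094545-141094574): agagacgcgggGTGGCGCTgcagccttaga

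PCDHB8 (chr5:141177778-141177807): gaggacccgtgGTGGCGCTgcaggataaga

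PCDHB16 (chr5:141182311-141182340): gagaacgcgtgGTGGCGCTgcaggttaaga

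PCDHB9 (chr5:141187075-141187104): gaagccacaagGTGGCGCTgcagactgaag

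PCDHB15 (chr5:141245315-141245344): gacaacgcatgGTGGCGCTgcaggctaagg

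PCDHB1, with 3 UMIs in all, was the beta promoter without the 8 letters, from which it differs by C5T, counted from 1 at the first capital. PCDHB8, with 7 UMIs in all, holds the same 8 letters as PCDHB2, PCDHB16, PCDHB9 and PCDHB15, so the letters were present in beta genes of high and of near-zero level. A match is a description of letters, not of a bound site. The alpha letters ATGTCGCT were in 9 of 13 alpha promoters and in 0.234% of all promoters, and the gamma letters GCCGCTGT in 11 of 20 gamma promoters and in 1.63% of all. The shorter GGCGCT, which lies inside the beta letters, was in 13 of 14 beta, 1 of 13 alpha and 9 of 20 gamma promoters, and in 21.7% of all. The same stretch of the alpha and gamma genes with the most UMIs is shown for comparison.

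PCDHA10 (chr5:140855842-140855871): aaagccaccggATGTCGCTgtcgtccacaa

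PCDHA12 (chr5:140875245-140875274): tcagtcacatgATGTCGCTctacactcaga

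PCDHGB6 (chr5:141407927-141407956): agcctctgggcGCCGCTGTcggccagtgca

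PCDHGA10 (chr5:141412934-141412963): ggactctgagcGCCGCTGTtcacctactag

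Partners and relatives of the family were counted from 3 lists. Their values are sums over all human cells, so cell mix and change within a class cannot be told apart. The shift with gene length against D0, described above, runs over all genes tested. Genes over 300 kb had a median log2 difference of 2.20 at 2MPT, and 68.2% of them were called higher. Lengths of the listed genes were not set beside their differences. Of 11 catenins and linkers, all tested, 4 rose at 2MPT against D0 and none fell, beside 27.2% of all genes higher and 21.1% lower. CTNNA2, the neural alpha-catenin, stood at 18.1 CPM in D0 and 471, 381, 686 and 419 CPM in the grafts (4.19 ± 0.41, SE, edgeR, adjusted p = 3.21e-05), CTNNA3 differed by 3.89, CTNND2 (delta-catenin) by 2.18 and VCL (vinculin) by 1.58. VCL fell between 2MPT and 4MPT by 1.17 on the log2 scale, and no other gene of the list was called in that comparison in all human cells.

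Of 11 regulators of the clustered genes, 5 fell at 2MPT against D0 and 1 rose, beside the same 21.1% and 27.2% of all genes. The cohesin genes RAD21, STAG2, SMC1A and SMC3 fell by 2.10, 1.59, 1.27 and 1.15 on the log2 scale, and WIZ by 1.12. STAG1, the alternative to STAG2 in cohesin, rose from 14.9 CPM to 196 and 233 CPM (3.48 ± 0.35, SE, edgeR, adjusted p = 3.78e-05). The length shift and the Cell Ranger releases described above bear on these differences too, and an exchange of STAG2 for STAG1 was not tested. CTCF, which binds the promoters of clustered protocadherins, stood at 61.6 CPM in D0 and 53.1 and 56.8 CPM at 2MPT, and was lower at 4MPT by 0.90 on the log2 scale. None of the 11 was called between 4MPT and 2MPT.

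Of 25 other genes of the cadherin superfamily, 18 were tested and 3 rose and 5 fell at 2MPT against D0, beside 27.2% of all genes higher and 21.1% lower. The desmosomal DSC2 and DSG2 fell by 4.71 and 3.71 on the log2 scale, FAT1 by 3.16, PCDH11X by 3.15 and CLSTN1 by 1.04. CDHR3 rose by 2.89, CDHR2 by 3.34 and CLSTN2 by 3.88, the last with 192 CPM in HIP_2MPT and 11.6 CPM in PFC_2MPT. Between 2MPT and 4MPT, PCDH11X rose by 1.90 (edgeR, adjusted p = 0.0286), and CLSTN2 was lower in PFC than in HIP by 2.52 (edgeR, adjusted p = 0.00333).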

How the data were processed

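Deposited were UMI counts per gene and cell barcode (unit: counts, not normalized) for 5 libraries, which the authors made from 10x Genomics 3′ reads, mapped to a human, a mouse and a joint human and mouse reference. The submitters' processing notes name Cell Ranger 3.1, R 4.1.1 and GRCh38; the headers of the deposited matrices name Cell Ranger 3.1.0 for D0 and 5.0.0 for the grafts. Counts on the human reference were used, and the joint reference gave the share of human UMIs of each graft barcode. Every D0 barcode was taken as human.

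Cells with over 500 UMIs, over 500 genes and a complexity (log genes over log UMIs) over 0.8 were kept, after the study's methods. They also had under 0.15 of UMIs from mitochondrial genes and, in the grafts, over 0.8 of UMIs from human genes. No doublet caller was run. Totals of the kept cells were 55892222 UMIs in D0 and 11192237 to 21459173 in the grafts. Cells were clustered with Seurat 5.3.0 and sctransform 0.4.2 on 2500 variable genes, with the family left out, 40 principal components and a resolution of 0.8, after integration over libraries. Clusters were named from marker lists.

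UMIs were summed per library and class over the 32732 genes in both annotations. Genes passing filterByExpr were tested with edgeR 4.0.16 (TMM, quasi-likelihood), with Benjamini-Hochberg adjustment over all genes tested and a threshold of 0.05. D0, 2MPT and 4MPT were 3 groups of one fit over 5 libraries, with HIP and PFC as the replicates of a stage. PFC against HIP was fitted in the 4 grafts with stage as a covariate, and astrocyte-like cells in the 4 grafts. The study's own test treats cells as replicates and was not followed. Intervals are exact 95% Poisson intervals, and the limit for 0 UMIs is 3 counts. Both cover counting error only. The scripts were tested on simulated data. DESeq2 1.42.0 and the other alternatives are in the closing section.

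Named are genes averaging at least 10 CPM, for each comparison the 5 called genes of largest change in either direction that reach 5 CPM in a library, and CDH1, CDH2 and CDH5. CDH16, PCDHA9, PCDHB1, PCDHB8 and called genes outside this rule were named after their values were seen. The members and gene lists were chosen with earlier results of these data known, and the promoter letters after the sequences were seen. Gene positions are from GENCODE v44 (GRCh38). One further list of pathway genes is not reported here.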

Additional observations from a re-analysis of the deposited data

Results flagged for a closer look

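In neuron-like cells, 9 genes of the family lay higher in one site at 2MPT and higher in the other at 4MPT, with counting intervals that did not overlap in either stage. The share of all genes that do the same was not counted, so the number is not set against a background and is not read as a trait of the family. The intervals cover counting error only. The difference between stages was not tested, because each site and stage is 1 library. PFC lay above HIP at 2MPT and below it at 4MPT in CDH11 (37.3 and 75.3 CPM in HIP and PFC at 2MPT, 148 and 103.6 CPM at 4MPT), CDH4 (165, 229.8, 216.6 and 182.2 CPM in the same order), CDH8 (0.827, 3.64, 33.6 and 8.62 CPM) and PCDH10 (9.1, 14.6, 26.7 and 18.4 CPM). The same held for PCDHB16 (24.3, 32.2, 31.7 and 18.7 CPM) and PCDHGB6 (20.99, 36.9, 40.6 and 20.2 CPM). HIP lay above PFC at 2MPT and below it at 4MPT in CDH24 (20.1, 13.0, 14.8 and 19.8 CPM), PCDH15 (6.72, 1.86, 2.45 and 9.81 CPM) and PCDH8 (54.2, 45.0, 23.8 and 37.6 CPM). Cluster 10, whose leading genes are those of inhibitory neurons, held 243 cells of HIP_4MPT and 1077 of PFC_4MPT, and its part in these values was not tested.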

How the results depend on the processing

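Alternatives were DESeq2, RLE size factors, no filter on low counts, other cell filters, the joint reference, matching genes by symbol, another resolution, no integration and the family kept among the variable genes. Those counts that moved by more than 1.5 times were as follows. Without a filter on low counts, 13 members were called between 4MPT and 2MPT in all human cells, 9 in neuron-like and 8 in astrocyte-like cells. DESeq2 called 5 members in progenitor-like cells at 2MPT against D0, in place of 13. Without integration, 6 members were at least 2-fold higher in neuron-like than in progenitor-like cells, in place of 3. The cause was not tested. Shares of all genes called under the alternatives of this section are not given here, so the counts of members have no background beside them. Leaving out 1 library gave 0 to 12 members called between the graft stages in all human cells, 2 to 7 in neuron-like and 2 to 5 in astrocyte-like cells. For 2MPT against D0 it gave 17 to 20 members in all human, 18 to 22 in neuron-like and 9 to 11 in progenitor-like cells, and for 4MPT against D0 14 to 24. A lone library of a stage is then assumed to vary like the others. These totals can include members not called with all libraries, so they do not count the calls that were kept. In progenitor-like cells, CDH20, CDH8, PCDH18, PCDH9, PCDHA12, PCDHB15 and PCDHB9 were no longer called without PFC_2MPT. With the grafting site (PFC or HIP) as a block in the grafts, 11 members were called between the stages. No single gene that was called turned direction under any alternative run. Leaving out a library for PFC against HIP could not be fitted. Beyond that fit by site, no fit by replicate number was possible because each condition is 1 library. Depth limits the 40 genes under 1 CPM, most of which were not tested.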
